A study of Rattus norvegicus with 2 samples.

Results

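Steroid hormone metabolism enzymes of the liver are 10 genes listed by name, namely Hsd17b2, Hsd17b6, Akr1c1, Cyp17a1, Srd5a1, Hsd11b1, Hsd3b5, Hsd17b10, Hsd17b4 and Hsd17b11. They were found through the RefSeq accession each array probe carries. All 10 had at least 1 named probe, out of 13667 genes named in all, and together they held 12 probes. All 10 were well above background on both arrays and so belong to the 7803 genes measured here. The animals were Sprague Dawley rats, and the labels used here give neither sex nor age. One group received 35 mg/kg of senecionine, a pyrrolizidine alkaloid known to injure the liver, into the stomach, and the other received sodium chloride. Livers of both groups were collected 36 h after dosing. Tissue of 3 animals per group was pooled and each pool was hybridised to 1 Agilent one-colour array, so no spread between animals is known, no test was possible and each difference is one between 2 arrays.

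The liver inactivates and reshapes steroid hormones that the gonads and adrenal glands release. Hydroxysteroid dehydrogenases move hydrogen between a steroid's hydroxyl and keto groups, the reductases of the Akr1 and Srd5a families reduce keto groups and ring double bonds, and cytochromes P450 add oxygen. Several of these enzymes differ between male and female rat liver, where the pattern of growth hormone secretion sets their level. Some genes carry the hydroxysteroid dehydrogenase name but are best known for work on fatty acids.

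After senecionine, 7 of the 10 genes lay below the control signal by 2-fold or more, and none was 2-fold or more above it. Among all measured genes 17.7% were at least 2-fold lower and 11.2% at least 2-fold higher. Differences of 4-fold or more were found for Hsd17b2, Akr1c1, Cyp17a1 and Hsd3b5, and 4.63% of all measured genes were 4-fold or more lower. The 10 ratios spanned a log2 range of -5.17 to -0.13 with a median of -1.55, against a median of -0.14 over all measured genes. The array scan detected fewer spots for the controls, with 64.1% of 43379 non-control spots well above background on the senecionine array and 44.4% on the control array. Signals are given as processed intensity units, and each ratio was taken after dividing by the array's 75th percentile of signal, 134 units for senecionine and 101 units for control. A log2 ratio is senecionine minus control and carries the error that the scanner software gives each spot, which is technical error within the arrays. Each probe of the 10 genes had 1 spot per array. The error, at 0.20 to 0.21 for all of them, is thus the software's estimate and no spread between repeated spots.

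The enzyme with the lowest ratio was Hsd17b2, which oxidises estradiol and testosterone to their less active keto forms. Its probe read 407 intensity units on the senecionine array and 11042 on the control array. After scaling it was 36.0-fold lower (log2 ratio -5.17 ± 0.20, spot error), and of the 7803 genes 0.231% had a lower ratio. Akr1c1, a member of the aldo-keto reductase family that the annotation also lists as Akr1c6 and Hsd17b5, read 139 units with senecionine and 3072 without. It was 29.2-fold lower (-4.87 ± 0.21). Its signal with senecionine was close to the array's 75th percentile, on a log2 scale 0.06 above it, while the control signal lay 4.93 above that of its own array. Hsd17b6 behaved otherwise. This enzyme, related to retinol dehydrogenases, oxidises hydroxyl groups of androgen metabolites, and it read 663 units with senecionine and 548 units in the control. The scaled log2 ratio of -0.13 ± 0.20 was within its spot error, and 50.3% of all measured genes had a lower ratio. The sign of this ratio turned to 0.15 with normexp background correction and to 0.01 when the median of all genes was set to zero. Of these 3 genes, Hsd17b2 and Akr1c1 gave the lowest ratios of the 10 and Hsd17b6 the ratio nearest to zero.

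**Figure D1:**
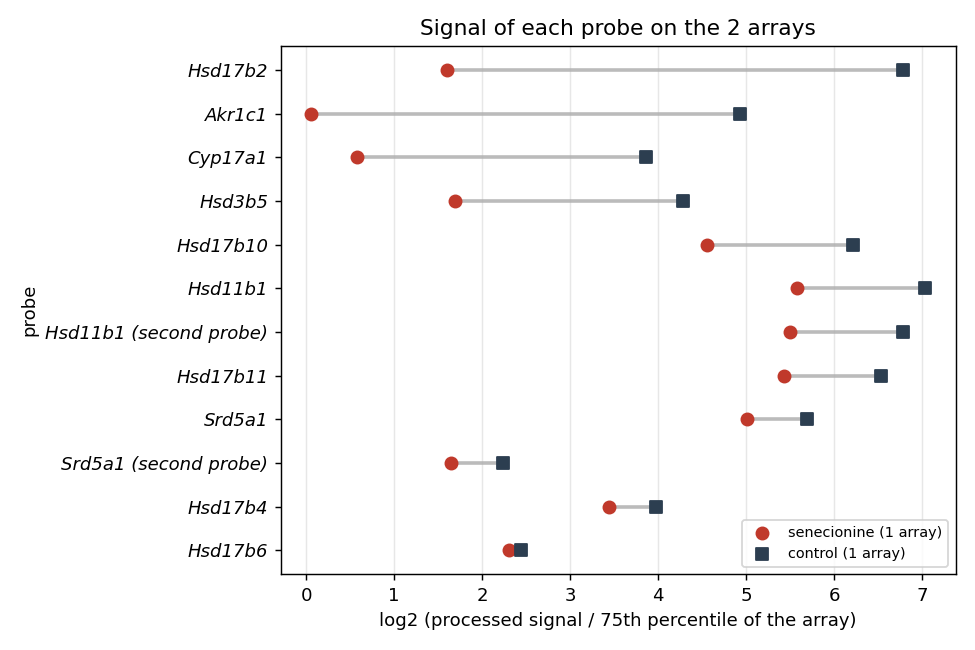
Signal of the 12 probes of the 10 enzymes, on the x axis as log2 of the processed signal over the array's 75th percentile, with circles for the senecionine array and squares for the control array. The circle lies left of the square for all 12 probes, with log2 ratios of -5.17 for Hsd17b2 and -0.13 for Hsd17b6, whose sign turned with normexp background correction. Positions can be compared within a probe and not between probes.

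Cyp17a1 makes the precursors of sex steroids as steroid 17-hydroxylase and lyase. It read 199 units with senecionine and 1468 in the control and was 9.78-fold lower (-3.29 ± 0.20), with 1.04% of genes below it. Hsd3b5 belongs to the 3-beta-hydroxysteroid dehydrogenases, and the mouse gene of this name encodes a male-biased liver enzyme. It read 431 units with senecionine and 1957 in the control and was 6.02-fold lower (-2.59 ± 0.20). Probes for its relatives Hsd3b1 and Hsd3b2 gave log2 ratios of -2.63 and -2.44. These 3 genes are close copies in sequence, and whether each probe reads its own transcript was not tested.

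Srd5a1, the 5-alpha-reductase that acts on testosterone, progesterone and corticosteroids, stayed within 2-fold on both of its probes. The brighter probe read 4297 units with senecionine and 5207 in the control (log2 ratio -0.68 ± 0.20). The dimmer probe read 420 units with senecionine and 474 in the control (-0.58 ± 0.20). The ratios of the probes differ by less than the spot error. Its relative Srd5a2, the form known from the prostate, went the other way. It read 312 units with senecionine and 96.5 in the control and was 2.44-fold higher (1.29 ± 0.22).

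Hsd11b1 regenerates active glucocorticoid from its inactive keto form inside the endoplasmic reticulum. Its 2 probes read 6372 and 6024 units with senecionine, against 13156 and 11086 in the control. They were 2.74-fold and 2.44-fold lower (-1.45 ± 0.20 and -1.29 ± 0.20), so both probes were past 2-fold and close to each other. H6pd, which supplies this enzyme with NADPH, was dim at 38.1 units with senecionine and 53.2 in the control and had a log2 ratio of -0.89 ± 0.25. Hsd11b2, which runs the opposite reaction and is known from kidney, was 3.77-fold lower (-1.92 ± 0.22) at 41.0 units with senecionine and 117 in the control.

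The remaining 3 genes are known mainly from lipid and amino acid metabolism. Hsd17b10 is a mitochondrial dehydrogenase of isoleucine breakdown and also a subunit of the ribonuclease that trims mitochondrial transfer RNA. It read 3150 units with senecionine and 7482 in the control and was 3.15-fold lower (-1.66 ± 0.20). Hsd17b11, a lipid droplet protein, read 5757 units with senecionine and 9286 in the control and was 2.14-fold lower (-1.10 ± 0.20), and this call was lost with quantile normalization, cyclic loess and normexp correction and relative to the median of all genes or to Alb. Hsd17b4, the multifunctional enzyme of peroxisomal fatty acid and bile acid side-chain shortening, read 1451 units with senecionine and 1582 in the control and had a log2 ratio of -0.53 ± 0.20. The median ratio of these 3 was -1.10, against -2.59 for the other 7. With 1 array per group this difference was not tested. Among the members past the 2-fold mark Hsd17b11 (-1.10) lay nearest to it, and among those within it Srd5a1 (-0.68).

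**Figure D2:**
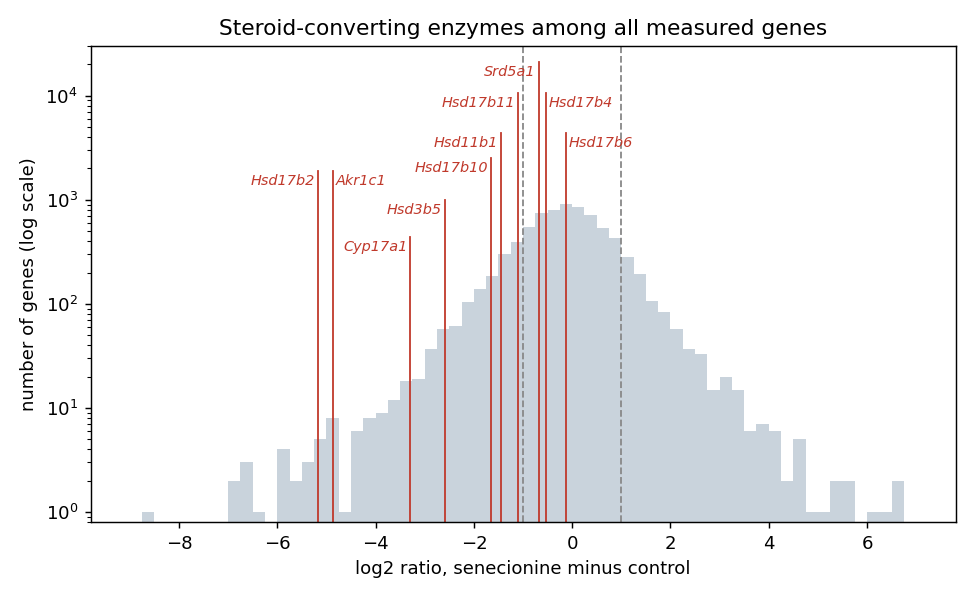
Histogram of the log2 ratio (senecionine minus control) of the 7803 measured genes in bins of 0.25 on the x axis, with the number of genes on a logarithmic y axis, and a labelled line for each of the 10 enzymes. Dashed lines mark 2-fold. Hsd17b2 and Akr1c1 sit in the thin left tail, at ranks 19 and 24 from the lowest, and Hsd17b6 sits at the middle of the distribution.

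Sequence before the transcription start was held by the RefSeq promoter table (GRCr8) for 4 of the 10 genes, Srd5a1, Hsd17b11, Hsd17b4 and Hsd17b10. Those of Hsd17b10 and Hsd17b4 are printed because both genes are known mainly from lipid or amino acid metabolism but lay on opposite sides of the 2-fold mark. The pair was thus chosen by its ratios, and these genes act in different pathways. Each run gives the 250 bases before the start on the plus strand, at chrX:24568301-24568550 for Hsd17b10 and chr18:45515177-45515426 for Hsd17b4. Capitals mark CCAAT in the first and AGGTCA, a half-site of nuclear receptors, in the second.
Hsd17b10: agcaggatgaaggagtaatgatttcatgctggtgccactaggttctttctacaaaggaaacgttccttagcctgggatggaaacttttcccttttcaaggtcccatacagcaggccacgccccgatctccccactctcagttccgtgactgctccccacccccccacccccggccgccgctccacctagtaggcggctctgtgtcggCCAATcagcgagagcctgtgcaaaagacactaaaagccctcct
Hsd17b4: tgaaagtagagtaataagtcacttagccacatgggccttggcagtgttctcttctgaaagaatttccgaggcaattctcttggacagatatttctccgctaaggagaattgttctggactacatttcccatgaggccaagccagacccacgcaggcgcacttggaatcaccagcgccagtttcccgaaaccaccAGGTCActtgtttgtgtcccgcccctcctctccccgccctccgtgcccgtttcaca
The half-site AGGTCA, the promoter box CCAAT and the pattern TTCNNNGAA that STAT factors bind were searched on both strands of the windows, and the matches do not overlap. CCAAT begins 43 bases before the start of Hsd17b10, 114 bases before that of Hsd17b11 and at 165 and 52 bases before that of Srd5a1. Of these genes Hsd17b10 and Hsd17b11 were past 2-fold on the main scale and Srd5a1 was not. AGGTCA begins 56 bases before the start of Hsd17b4. Of all 33469 promoters in the table, 34.0% hold CCAAT, 14.1% hold AGGTCA and 7.67% hold TTCNNNGAA, which was found in none of the 4. The GC content of the 4 windows was 66.4% for Srd5a1, 56.4% for Hsd17b10, 53.6% for Hsd17b11 and 52.4% for Hsd17b4, against a median of 51.2% over all promoters. A match describes the sequence and shows no binding.

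Other dehydrogenases and reductases of steroids were listed beside the 10. Of 18 measured, 11 were at least 2-fold lower and 1, Srd5a2, was higher, with a median log2 ratio of -1.10. The Akr1 reductases held most of these, with 7 of 9 lower and none higher (5 lower under quantile normalization, cyclic loess or normexp correction). Akr1c2 was 14.4-fold, Akr1c15 10.3-fold, Akr1c3 7.04-fold and Akr1c12l1 4.88-fold lower. Akr1c14, the 3-alpha-hydroxysteroid dehydrogenase of rat liver, was 2.17-fold lower (-1.12 ± 0.20). Akr1d1, which reduces the ring double bond in the bile acid direction, had probes at log2 ratios of -1.04 and 0.57, so its call depends on the probe. Genes of the Akr1c family are close copies, and cross-hybridisation among them was not tested. Of 4 other 17-beta-hydroxysteroid dehydrogenases only Hsd17b8 was past 2-fold (-1.09), and none was with cyclic loess or normexp correction. Hsd17b13, Hsd17b12 and Hsd17b1 had ratios of -0.79, -0.60 and -0.13, and Hsd17b3, the enzyme of the testis, was not well above background on either array. Of 5 other genes of the 3-beta, 11-beta and 5-alpha families, 3 were lower (Hsd3b1, Hsd3b2 and Hsd11b2) and Srd5a2 was higher.

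Cytochromes P450 that hydroxylate steroids were at least 2-fold lower in 10 of 13 cases and higher in 1. Under quantile normalization, cyclic loess or normexp correction 9 were lower. Cyp2c11, which hydroxylates testosterone and is male-specific in rat, had the lowest ratio of the list (-6.70 ± 0.20), at 561 units with senecionine and 44003 in the control. Cyp2a2, Cyp2c13 and Cyp3a9 had log2 ratios of -2.71, -2.33 and -2.03. Cyp3a9 was dim, at 13.9 units with senecionine and 42.7 in the control, with a spot error of 0.34. Cyp2c12, the female-specific member, had a log2 ratio of 0.31 ± 0.20 at 6936 units with senecionine and 4232 in the control. The 1 higher gene, named after its value was seen, was the oxysterol hydroxylase Cyp7b1 (1.96 ± 0.23). Probes of the Cyp2c and Cyp2a families can read each other's transcripts.

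Electron and NADPH supply differed by gene. Cyb5a, the cytochrome b5 that stimulates the lyase step of Cyp17a1, was 4.66-fold lower (-2.22 ± 0.20), at 1779 units with senecionine and 6254 in the control. Por, the reductase on which microsomal P450 enzymes depend, stood at a log2 ratio of -0.14 ± 0.20, no larger than its spot error, and near zero with normexp correction. In the whole list 3 of 8 were lower by 2-fold or more and none was higher (4 with median scaling, 2 with the other scalings and corrections). Besides Cyb5a these were Cyb5r3 (-1.47) and Idh1 (-1.06). Me1, named after its values were seen, had log2 ratios of -0.00089 on its brightest probe and -1.85 on the other. Its call, and so the count, depends on the probe. Steroid conjugation genes were lower in 5 of 10 cases and higher in none, or lower in 3 with normexp correction. The estrogen sulfotransferase Sult1e1 had a log2 ratio of -3.36, and the glucuronosyltransferases Ugt2b37, Ugt2b1 and Ugt2b10 had ratios of -2.31, -1.73 and -1.17.

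**Figure D3:**
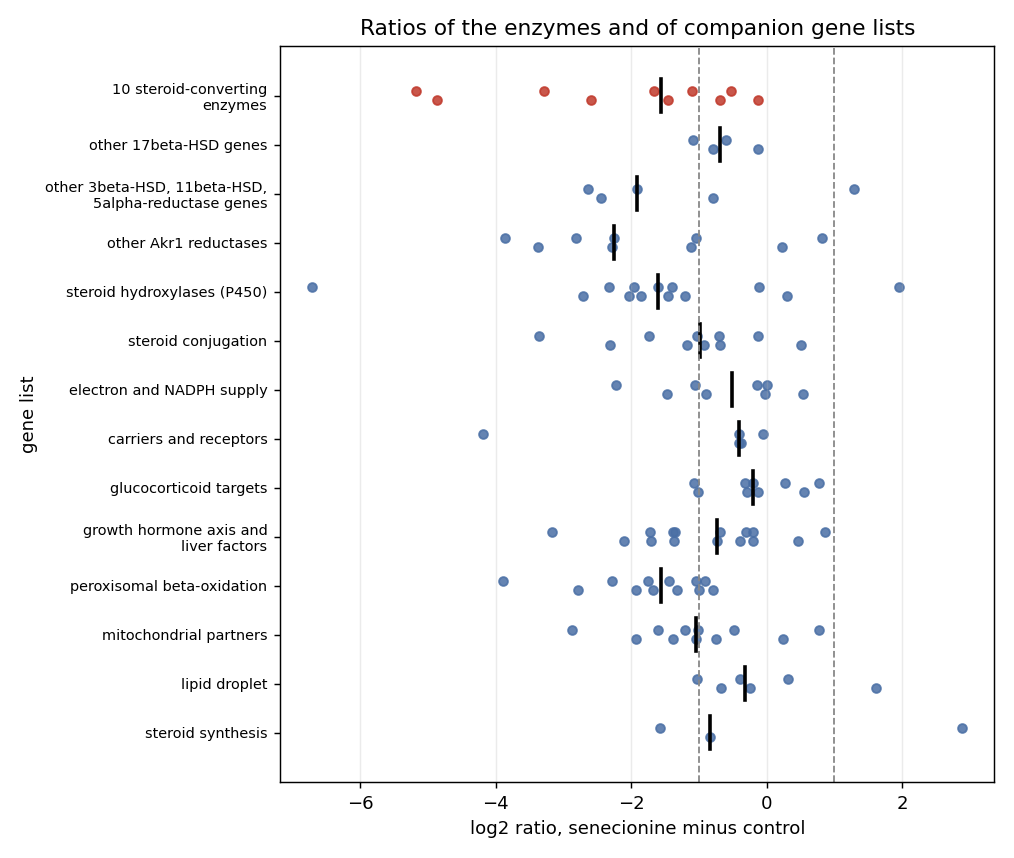
Log2 ratio (senecionine minus control, x axis) of each measured gene in the list of 10 enzymes (top) and in 13 companion lists (rows), with a black bar at each list's median and dashed lines at 2-fold. The medians were -1.55 for the 10 enzymes, -2.25 for other Akr1 reductases, -1.61 for the P450 hydroxylases and -0.20 for glucocorticoid targets.

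Serpina6, the plasma carrier of corticosteroids, was 18.3-fold lower (-4.19 ± 0.20), at 348 units with senecionine and 4791 in the control. It was the only 1 of 5 measured carriers and receptors past 2-fold. The glucocorticoid receptor Nr3c1 and the mineralocorticoid receptor Nr3c2 both had a log2 ratio of -0.41, and the progesterone-binding membrane protein Pgrmc2 had one of -0.38. Nr3c1 and Pgrmc2 had ratios of -0.79 and -0.84 on their other probes, also within 2-fold. Nr3c2 was dim, at 66.5 units with senecionine and 66.8 in the control. Of 9 measured glucocorticoid targets 2 lay past 2-fold on the lower side and none on the upper side, but none was lower under quantile normalization or cyclic loess and 1 was with normexp correction. The 2 were the kinase Sgk1 (-1.07 ± 0.20) and the tyrosine aminotransferase Tat (-1.01 ± 0.20), while Angptl4 and Dusp1 had ratios of 0.78 and 0.54. Fkbp5 had probes at 0.27 and 1.00, so that its call depends on the probe. In the list of growth hormone signalling and liver transcription factors, 7 of 15 were lower and none higher. This became 6 lower under quantile normalization or cyclic loess and 5 with normexp correction. Igfals, the binding partner of circulating Igf1, had a log2 ratio of -3.16, the growth hormone receptor Ghr one of -2.11 (-1.53 and -0.58 on its other probes), Cebpa one of -1.72 and the prolactin receptor Prlr one of -1.70.

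Genes listed beside the lipid-related members were read in the same way. Of 12 measured genes of peroxisomal beta-oxidation, 9 were past 2-fold on the lower side and none on the upper, with a median of -1.56, whereas Hsd17b4 of the same pathway stood at -0.53. With median scaling 11 of the 12 were lower, and with normexp correction 7. Hacl1, Acaa1b, Ehhadh and Amacr had log2 ratios of -3.88, -2.79, -2.28 and -1.93. Ehhadh encodes the other peroxisomal multifunctional enzyme. Of 11 measured mitochondrial genes listed beside Hsd17b10, 7 were lower and none higher. Under quantile normalization or cyclic loess 6 were lower, and with normexp correction 5. This list is not confined to isoleucine breakdown, in which Hsd17b10 acts. Hadh stood at -2.88, Ivd at -1.93, Mccc2 at -1.61 and Acat1 at -1.38 (-0.84 on its other probe, within 2-fold). Trmt10c, which joins Hsd17b10 in the mitochondrial ribonuclease and is named after its value was seen, had a log2 ratio of 0.77 ± 0.20 and 0.80 on its other probe. Of 6 measured lipid droplet genes 1 was lower (Cidec, -1.02) and 1 higher (Cidea, 1.61), and neither was with normexp correction, while G0s2 and Pnpla2 stood at -0.68 and -0.39. In the list of steroid synthesis genes, 3 were measured. The mitochondrial electron carrier reductase Fdxr had a ratio of -1.57, its partner Fdx1 one of -0.83 and the cholesterol-binding protein Tspo one of 2.88.

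Markers of cell types were read beside these results, since in a pooled tissue fewer cells of a type and less RNA per cell cannot be told apart. Of 10 hepatocyte markers 5 had a named probe and all 5 were measured. Their summed signal, before scaling as are all sums here, was 353209 units with senecionine and 386662 in the control. By ratio, 2 of the 5 were at least 2-fold lower and the median was -0.57. With quantile normalization 1 was lower, 1 was higher and the median was -0.13, and with cyclic loess 1 was lower and the median was -0.02. Other probes gave 0.58 for Fgb (-0.34 on the brightest), 0.23 to 1.36 for Apob (0.54 on the brightest) and -1.20 for Alb. Albumin (Alb), at 55952 units with senecionine and 92727 in the control, had a log2 ratio of -1.14 ± 0.20. It ranked 1138 from the lowest of the 7803 measured genes. Of the 10 steroid enzymes, 6 lay below Alb by more than the combined spot error. Taken relative to Alb, 4 of the 10 were lower by 2-fold or more, namely Hsd17b2 (-4.03), Akr1c1 (-3.73), Cyp17a1 (-2.15) and Hsd3b5 (-1.45). Hsd17b6 was past 2-fold on the upper side (1.01), but so were 3899 of the 7803 measured genes, while 284 were 2-fold or more lower. On this scale too Hsd17b6 lay at the middle of all measured genes, so this call does not set it apart from them. Markers of the adrenal gland and gonads were well above background in 4 of 9 named cases on the senecionine array and 1 of 9 on the control array, summing to 157 and 103 units. Cyp11a1, which starts steroid synthesis, and the aromatase Cyp19a1 were not well above background on either array, and Star had no named probe. Markers of neutrophils summed to 10435 units with senecionine and 381 in the control, with 6 and 3 of 6 well above background, and the 3 measured on both arrays were higher. Those of macrophages had no common direction, with 3 of 7 measured higher, 2 lower and a median of -0.04. Their sum of 33956 units with senecionine and 14715 in the control, with 7 of 8 well above background on each array, was carried by Lgals3 (19507 and 1955 units), while the Kupffer cell lectin Clec4f stood at -3.17 and Adgre1 at -1.28. Cholangiocyte markers summed to 3354 units with senecionine and 84.8 in the control, with 3 and 2 of 4 well above background. Of this sum Spp1 made up 2897 units with senecionine and was not well above background in the control, and Krt19 and Epcam were 3.15-fold and 5.83-fold higher. Endothelial markers summed to 2562 units with senecionine and 8652 in the control, with 6 and 5 of 7 well above background, and 4 of 5 measured were lower. Stellate cell markers summed to 18244 units with senecionine and 20378 in the control, with all 6 well above background on both. Collagen genes made up most of that sum, and by ratio 3 of the 6 were higher (Dcn 3.56, Vim 2.63 and Des 2.44), Lrat was lower (-2.33) and the median was 1.14. Brain markers summed to 691 units with senecionine and 7095 in the control, and 9 of 12 on the senecionine array and 8 of 12 on the control array were well above background. Stmn2 and Gad1 were so on neither. Of the 7 that were measured on both, 6 lay past 2-fold on the lower side. Tubb3 made up most of the brain sum, at 373 units with senecionine and 5620 in the control. The part of these cell types in the enzymes' ratios was not tested.

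The authors' deposited table, a list of probes past 2-fold on a log2 scale with no statement of how it was scaled, holds 6 of the 12 probes. In the authors' deposited table Hsd17b2 stood at 8.77 for senecionine and 13.70 for control, a difference of -4.93. In the authors' deposited table the differences were -4.77 for Akr1c1, -3.22 for Cyp17a1, -2.43 for Hsd3b5, -1.33 for Hsd17b10 and -1.05 for Hsd11b1. All 6 lie on the same side as the ratios above and nearer to zero. Hsd17b11 and the dimmer probe of Hsd11b1 (-1.29 here) are not among the probes of the authors' deposited table. The authors' deposited table is limited to differences of at least 1.0 in size.

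**Figure D4:**
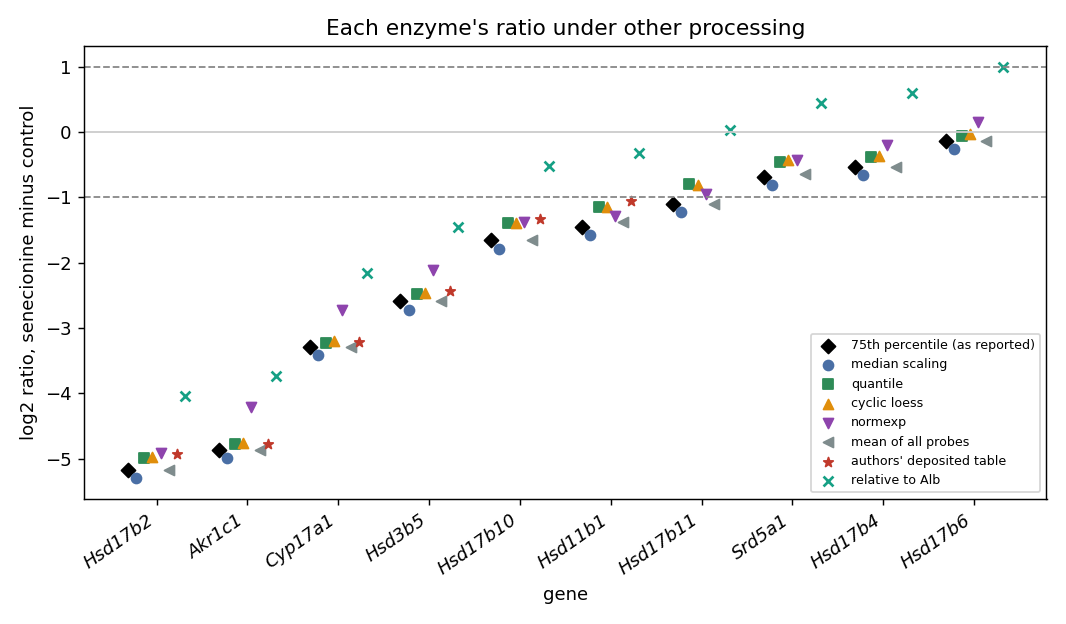
Log2 ratio (y axis) of each of the 10 enzymes (x axis) under 8 ways of scaling or correcting the signals, 1 symbol for each, with dashed lines at 2-fold. Hsd17b2, Akr1c1, Cyp17a1 and Hsd3b5 lie below the lower dashed line under all 8, and Hsd17b11 lies on either side of it. The authors' deposited table has no value for 4 of the genes.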

How the data were processed

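Liver RNA pools were measured on 2 one-colour arrays, grouped by their titles. The authors ran Agilent Feature Extraction 10.7.3.1, per the file headers and the submitters' processing notes, which subtracted background and removed trends within the array. No scaling between arrays was applied to the deposited intensity values. The authors' deposited series table holds log2 values for 7404 probes.

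Here log2 of the processed signal was taken and the 75th percentile of each array's non-control spots subtracted. Control spots and spots with an outlier flag (497 on the senecionine array, 522 on the control array) were left out. No non-control spot was saturated. Spots of 1 probe were averaged. This left 40516 probes, of which 17250 were named through RefSeq accessions (GRCr8, used for names only). A gene counted as measured if both arrays had a probe of it well above background, and its brightest such probe was used. With 1 array per group no test was run and 2-fold size was used. Precision is limited by the number of arrays. The counting was tested on simulated data.

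The members and the 13 companion and 8 marker lists were chosen with earlier results of these data known. Up to 4 genes per companion list, those with the largest absolute ratio, are named, plus 14 fixed genes, of which 1 is not reported here. The motifs were chosen after the promoters were seen. Alternatives covered scaling, background correction, filters, probe rule, threshold and the authors' values. The files hold no mean spot signals, so normexp (offset 50) used median signals. Normalizations ran in limma 3.58.1 on R 4.3.3, and the rest in Python 3.11.15 with pandas 2.3.3, numpy 2.4.6 and matplotlib 3.10.9.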

Additional observations from a re-analysis of the deposited data

How the results depend on the processing

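The count of 7 genes at least 2-fold lower was 6 with quantile normalization, cyclic loess or normexp correction, where Hsd17b11 lay at -0.80, -0.80 and -0.95. It was also 6 relative to the median of all measured genes (Hsd17b11 at -0.96, chosen after seeing the data), and 4 at a 4-fold threshold. Of all measured genes 17.7% were at least 2-fold lower on the main scale and 16.4% with quantile normalization. This share was 16.8% with cyclic loess, 9.75% with normexp correction and 14.6% relative to the median. At the 4-fold threshold it was 4.63%. The median of -1.55 was -1.27 with quantile normalization, -1.27 with cyclic loess and -1.33 with normexp correction. It was -2.82 with the authors' deposited values, which cover 6 of the genes. Those values hold only differences past 2-fold, so this median cannot be set against the others. Relative to Alb, chosen after seeing the data, 4 were lower, 1 was higher (Hsd17b6, 1.01), the median was -0.42 and Hsd17b11 turned to 0.039, because this subtracts -1.14 from every ratio. Of the 7803 measured genes 1379 were lower and 876 higher, or 761 and 613 with normexp correction. With detection on at least 1 array, 1562 of 10592 genes were lower and 2389 higher. In the authors' deposited values 1484 of 3516 genes were lower and 2032 higher. All genes there are past 2-fold because only such differences are listed. Relative to Alb 284 of the 7803 genes were lower and 3899 higher. The median of all genes was -0.14, and -0.26 with median scaling. No paired analysis was possible because each group has 1 array. All 10 genes were well above background on both arrays, and the dimmest reading among them was that of Akr1c1 with senecionine, at 139 units.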
